A study of Mus musculus with 9 samples.

Results

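Death receptors and the caspases they engage were followed in intestinal epithelial cells (IECs) of mice after activation of natural killer T (NKT) cells. The genes were listed by name for their place in the extrinsic pathway of apoptosis, with earlier results of these data known. They were the death receptors Fas, Tnfrsf1a and Tnfrsf10b, the death ligand Tnfsf10, the adaptor Fadd, the initiator caspase Casp8 with its regulator Cflar, and the executioner caspase Casp6. All 8 were among the 29288 genes of the count table, and all 8 were among the 18933 genes that were tested after genes with few counts were removed.

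The mice were wild-type female C57BL/6J animals, of young adult age per the study methods, with no transgene or deletion in any group. Crypts were prepared from the proximal small intestine, and live cells that carried EpCAM and lacked CD45, CD31 and Ter119 were sorted, so that leukocytes, endothelial cells and red blood cells were gated out. Control mice were injected intraperitoneally with PBS and sampled at 18 h, 18h-αGal mice were injected with 2 µg of α-galactosylceramide (αGalCer) and sampled at 18 h, and 72h-αGal mice were given the same dose and sampled at 72 h, with 3 mice and 3 libraries in each group. αGalCer is a glycolipid that is presented by CD1d to the invariant receptor of NKT cells, which then release cytokines such as IFN-γ. Since the only controls were sampled at 18 h, αGalCer and the time of sampling cannot be told apart at 72 h.

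In the extrinsic pathway, a ligand of the TNF family gathers its receptor at the cell surface, and the death domain of the receptor recruits the adaptor FADD, directly or by way of TRADD and RIPK1. FADD binds caspase-8, which becomes active when its molecules pair, and active caspase-8 cleaves the executioner caspases or the protein BID, which carries the signal to mitochondria. cFLIP, the product of Cflar, pairs with caspase-8 on the same adaptor and sets whether the caspase becomes fully active. In the intestinal epithelium the pathway is known for the loss of IECs that TNF and Fas ligand can bring about, and for the inflammation that follows when Casp8 or Fadd is deleted. Caspases are made as inactive precursors, so the level of an mRNA is not a measure of caspase activity or of cell death.

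Libraries held between 8887861 and 32722293 counts, and 3 counts, the floor used here, were worth between 0.0917 and 0.338 CPM, the count scaled to a fixed library total. The 7 epithelial markers were all detected and summed to between 4724 and 5974 CPM per library. Of 28 markers of T and NK cells, B cells, myeloid, endothelial, stromal and erythroid cells, 22 were in the table, and they summed to 11.3 to 16.3 CPM in controls, 8.58 to 12.0 CPM in 18h-αGal and 11.8 to 16.5 CPM in 72h-αGal libraries. Of the 8 T and NK cell markers, 6 were in the table. Cd3d and Cd2 were not, and Cd3e was at 0 in all controls and at most 24.3 normalised counts elsewhere. The 6 together were detected in every library, at 0.675 to 2.66 CPM in controls and 0.330 to 6.82 CPM in 72h-αGal. The 18h-αGal sums lay within the control range. Ptprc, the gene of CD45, was also detected in every library. It was at 14.2 to 29.4 normalised counts in controls, 25.2 to 39.5 in 18h-αGal and 4.42 to 57.9 in 72h-αGal. The libraries also differed in their mix of epithelial cells. Summed stem cell markers (Lgr5, Olfm4, Ascl2) ranged from 1299 to 2816 CPM in controls, from 307 to 1323 in 18h-αGal and from 1695 to 2924 in 72h-αGal, and in such bulk samples fewer cells of a type and less RNA per cell cannot be told apart. Summed enteroendocrine markers (Chga, Chgb) were 178 to 207 CPM in controls, 264 to 376 in 18h-αGal and 84.4 to 99.9 in 72h-αGal. These groups did not overlap, with 18h-αGal highest and 72h-αGal lowest, while stem cell markers were lower in 18h-αGal than in 72h-αGal. Group means of the Casp8 to Cflar ratio, Fas, Tnfrsf1a, Fadd, Casp8 and Casp6 stood in the enteroendocrine order. Those of Tnfsf10, Tnfrsf10b and Cflar did not. For Fadd the control and 72h-αGal means were 597 and 595, with SDs of 61.6 and 60.2, so its order is not resolved. The share of all genes in this order was not taken, so the match is not a result about these genes. Enterocyte, goblet, Paneth and tuft cell markers overlapped between all groups. The part of this mix in the results was not tested. Control replicate 3, the smallest library, had the highest Vil1 (a cytoskeletal gene and 1 of the 7 epithelial markers) of the controls. It was at 26216 normalised counts, against 16431 and 13049.5 in replicates 1 and 2. The same library had the lowest Lgr5 and Olfm4 of the controls. Lgr5 was at 932, against 2424 and 3241 in replicates 1 and 2. Olfm4 was at 26289, against 40052 and 47952.

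The 4 genes that differed between the 18 h and 72 h αGalCer groups were Tnfsf10, Casp8, Tnfrsf1a and Fas, and the promoters of Tnfsf10, Fas and Casp8 are shown to let letters that resemble sites of interferon-activated factors be seen beside the values. Sequences were those of RefSeq (build GRCm38.p6), which held 7 of the 8 genes, all but Tnfrsf10b. They were placed on GRCm39 by an exact match, and are printed 5′ to 3′ on the plus strand, on which all 3 genes lie. Within 250 bases before the RefSeq start of each gene, both strands were searched for AANNGAAA (the core that interferon regulatory factors bind), the interferon-stimulated response element, which contains the first motif, and the NF-κB motif. Capitals mark the matches.
Tnfsf10, first stretch, chr3:27371166-27371195: tgcttagTTTCACTTttggtctcaacagta
Tnfsf10, second stretch, chr3:27371196-27371225: AAAAGAAActgcatgggcactccgccttct
Fas, chr19:34267809-34268000: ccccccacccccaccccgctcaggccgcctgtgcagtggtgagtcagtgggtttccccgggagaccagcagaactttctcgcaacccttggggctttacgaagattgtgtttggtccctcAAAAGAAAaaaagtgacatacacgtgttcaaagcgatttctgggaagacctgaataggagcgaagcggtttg
Casp8, chr1:58841411-58841651: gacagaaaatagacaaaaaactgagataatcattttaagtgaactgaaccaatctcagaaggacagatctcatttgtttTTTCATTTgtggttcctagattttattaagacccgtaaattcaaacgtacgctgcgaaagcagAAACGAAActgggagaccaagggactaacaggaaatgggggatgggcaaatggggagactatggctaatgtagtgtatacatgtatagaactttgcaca

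The 192 bases of Fas and the 241 bases of Casp8 lay outside annotated exons. The RefSeq start of Casp8 was inside the gene as annotated by GENCODE, so this stretch was intronic there. The 30-base stretches of Tnfsf10 lay within exons that GENCODE starts further upstream. AANNGAAA was found 2 times in Tnfsf10, 2 times in Casp8 and 1 time in Fas, and not in Tnfrsf1a, Fadd, Cflar or Casp6. Among all 32851 promoters of the same length, 21.3% held at least 1 match. The response element (2.98% of all promoters) and the NF-κB motif (4.11%) were found in none of the 7. The same search of Rnf31 and Cycs, further pathway genes described below that also rose at 18 h, found no match to any of these motifs. A match is a description of letters, and binding was not measured.

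Tnfsf10, which encodes the death ligand TRAIL, was the gene of the group that rose at 18 h. It lies on chromosome 3 (GRCm39, 27371033 to 27396576, plus strand). Its normalised counts, which are raw counts divided by 1 size factor per library, were 2542, 2303 and 3124 in controls, 5844, 5960.1 and 4560.1 in 18h-αGal and 2758, 2589 and 2854 in 72h-αGal. The 3 18h-αGal mice were above all others, while the 72h-αGal mice fell inside the range of the controls. The rise at 18 h was 2.07-fold (95% interval 1.69 to 2.53; log2 fold change 1.05 ± 0.14 SE; edgeR quasi-likelihood test with Benjamini-Hochberg adjustment over all 18933 genes, adjusted p = 0.000528), and the gene ranked 52 of all genes by p. Between 18 h and 72 h it fell by 0.99 ± 0.14 on the log2 scale (adjusted p = 0.000593), and at 72 h the log2 difference from control was 0.06, with an interval from -0.23 to 0.35. Tnfsf10 passed the threshold in all 16 alternative analyses of the first contrast and all 16 of the second.

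The genes whose levels over the 9 libraries followed Tnfsf10 most closely were Gbp7, an interferon-inducible GTPase, Cnp, a phosphodiesterase, and Rnf141, a RING finger protein. They were picked by the highest Pearson correlation of log2 CPM among 10991 genes with a mean of at least 5 CPM, and the correlations of 0.982, 0.980 and 0.979 are descriptions, since the libraries share the difference between groups. Mean normalised counts of Gbp7 were 211 ± 109 in controls, 1463 ± 185 in 18h-αGal and 211 ± 6.51 in 72h-αGal (SD, n = 3). In the same order they were 424 ± 113, 1069 ± 261 and 476 ± 46.5 for Cnp. For Rnf141 they were 1514 ± 105, 2164 ± 68.3 and 1545 ± 83.9. The log2 fold change at 18 h was 2.85 for Gbp7, 1.36 for Cnp and 0.52 for Rnf141.

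**Figure D1:**
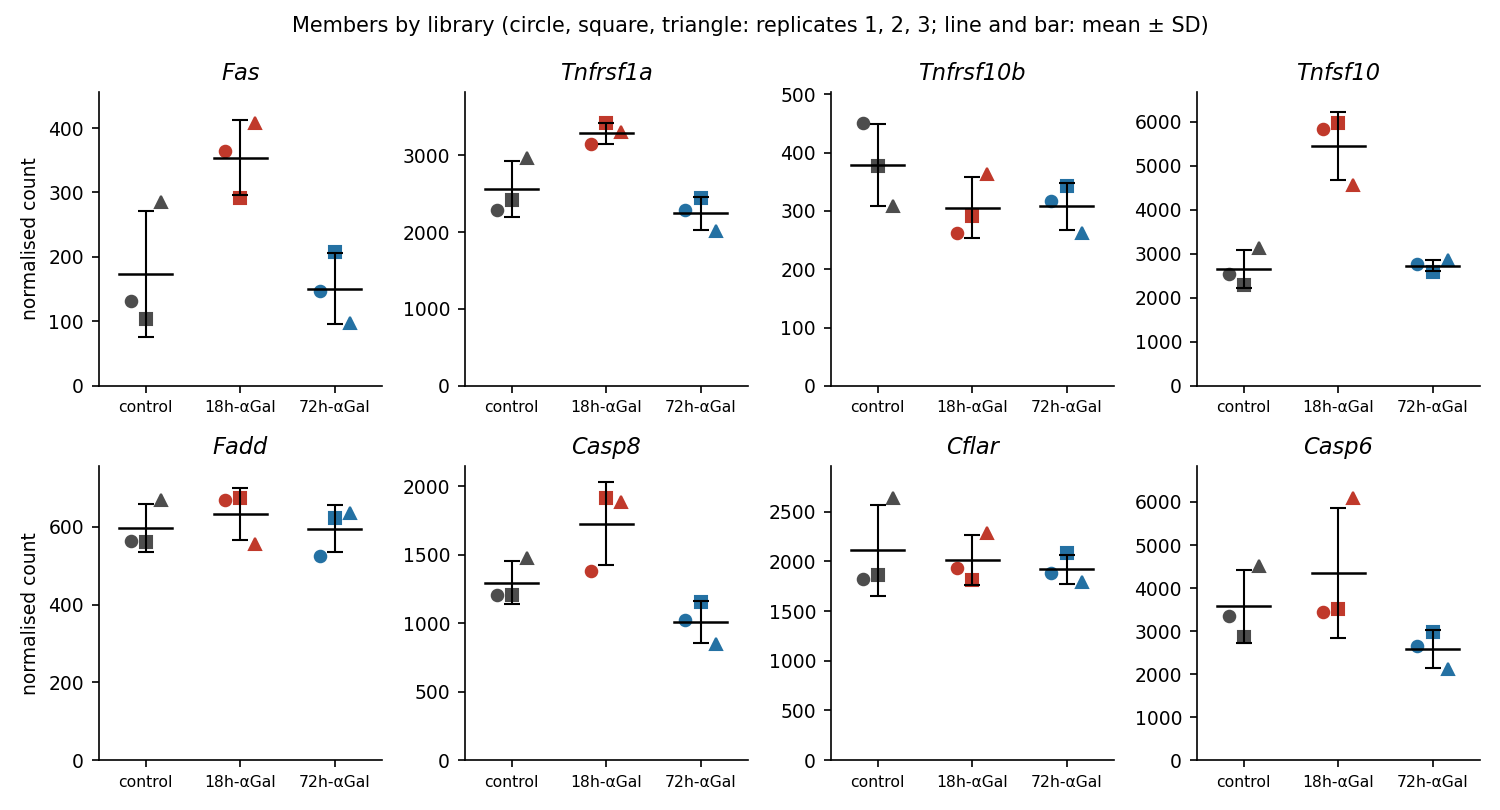
Normalised counts of the 8 genes in each of the 9 libraries, 1 panel per gene, with a linear axis from 0 (shapes are replicates 1 to 3; lines and bars are the mean ± SD of 3 mice in the control, 18h-αGal and 72h-αGal groups). The 18h-αGal mice lie above all controls for Fas, Tnfrsf1a and Tnfsf10, and the groups overlap at 18 h for the other 5 genes.

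Of the receptors, Fas and Tnfrsf1a were higher in each 18h-αGal mouse than in any control without passing the test against control, and both fell between 18 h and 72 h. Fas (chromosome 19, 34268001 to 34305173, plus strand) encodes the receptor of Fas ligand. Normalised counts were 132, 104 and 285 in controls, 364, 292 and 407 in 18h-αGal and 147, 208 and 97.1 in 72h-αGal, from raw counts of 110 to 577. Control replicate 3 stood close to the lowest 18h-αGal value and far above the other 2 controls. The log2 fold change at 18 h was 1.07 ± 0.36 (95% interval 0.31 to 1.84; adjusted p = 0.0954). Without control replicate 3 it was 1.58 (adjusted p = 0.00732), so leaving out this 1 library changed the call. The part of that library's epithelial mix in the result was not tested. From 18 h to 72 h Fas fell by 1.23 ± 0.36 on the log2 scale (adjusted p = 0.0415), a call that was lost in 7 of 16 alternatives, with adjusted p up to 0.182 when 72h-αGal replicate 3 was left out. At 72 h the log2 difference from control was -0.16, with an interval from -0.93 to 0.62.

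Tnfrsf1a encodes TNFR1, the TNF receptor that carries a death domain, and lies on chromosome 6 (125325566 to 125339632, plus strand). Normalised counts were 2281, 2414 and 2967 in controls, 3141, 3411 and 3295 in 18h-αGal and 2285, 2437 and 2013 in 72h-αGal. Values of 18h-αGal mice lay in a narrow band just above the highest control, and those of 72h-αGal mice reached from below the controls into their range. The log2 fold change at 18 h was 0.37 ± 0.12 (adjusted p = 0.0835), and 0.48 without control replicate 3 (adjusted p = 0.0202). Tnfrsf1a fell from 18 h to 72 h by 0.54 ± 0.12 on the log2 scale (adjusted p = 0.0109), but not significantly when 18h-αGal replicate 2 (adjusted p = 0.0531) or 72h-αGal replicate 3 (adjusted p = 0.0667) was left out.

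Tnfrsf10b, a mouse receptor of TRAIL (chromosome 14, 70004916 to 70021860, plus strand), passed the test in no contrast. Normalised counts were 449.9, 378 and 309 in controls, 262, 292 and 363 in 18h-αGal and 317, 343 and 263 in 72h-αGal, from raw counts of 130 to 766. All 3 groups overlapped. The log2 fold change was -0.32 ± 0.22 at 18 h (interval -0.78 to 0.15; adjusted p = 0.456) and -0.30 ± 0.22 at 72 h (interval -0.76 to 0.17; adjusted p = 0.898). At 18 h the interval thus held no rise above 0.15 on the log2 scale.

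Fadd, the adaptor (chromosome 7, 144131055 to 144136211, minus strand), stayed within a narrow range. Normalised counts were 563, 560.0 and 668 in controls, 669, 675 and 555 in 18h-αGal and 526, 623 and 636 in 72h-αGal, with means of 597 ± 61.6, 633 ± 67.7 and 595 ± 60.2 (SD, n = 3). The groups overlapped in every contrast. The log2 fold change was 0.10 at 18 h (interval -0.25 to 0.45; adjusted p = 0.797) and 0.02 at 72 h (interval -0.33 to 0.36; adjusted p = 0.999).

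Casp8 and Cflar lie next to each other on chromosome 1, Cflar at 58750321 to 58798047 and Casp8 at 58834375 to 58886665, both on the plus strand, with 36327 bases and no whole protein-coding gene between them. Normalised counts of Casp8 were 1204, 1206 and 1479 in controls, 1381, 1918 and 1889 in 18h-αGal and 1026, 1154 and 852 in 72h-αGal. 18h-αGal replicates 2 and 3 were above all controls and replicate 1 was inside their range, and all 72h-αGal mice were below the lowest control. Casp8 fell by 0.77 ± 0.16 on the log2 scale from 18 h to 72 h (adjusted p = 0.00684), a call kept in all 16 alternatives. Neither group differed significantly from control, with log2 fold changes of 0.42 ± 0.16 at 18 h (interval 0.09 to 0.76; adjusted p = 0.127) and -0.34 ± 0.16 at 72 h (interval -0.68 to -0.01; adjusted p = 0.827).

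Cflar passed the test in no contrast. Its normalised counts were 1825, 1865 and 2641 in controls, 1939, 1812 and 2290.4 in 18h-αGal and 1883, 2084 and 1795 in 72h-αGal. The groups overlapped in all 3 contrasts, and control replicate 3 was the highest of the 9 libraries. The log2 fold change was -0.06 ± 0.15 at 18 h (interval -0.37 to 0.25; adjusted p = 0.880) and -0.12 ± 0.15 at 72 h (interval -0.43 to 0.19; adjusted p = 0.960). Without control replicate 3 both were above 0, at 0.13 and 0.07.

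Since cFLIP pairs with caspase-8 on the same adaptor, the ratio of Casp8 to Cflar normalised counts was taken within each library, where the size factor cancels. It was 0.660, 0.647 and 0.560 in controls, 0.713, 1.06 and 0.825 in 18h-αGal and 0.545, 0.554 and 0.475 in 72h-αGal. The 3 groups did not overlap, with 18h-αGal highest and 72h-αGal lowest. The means were 0.622 ± 0.0543, 0.865 ± 0.177 and 0.524 ± 0.0433 (SD, n = 3). No test was made of the ratio, which is one of mRNA counts without correction for length. No share over other pairs of genes was taken. The ratio is built on the Casp8 values above, in which all 72h-αGal mice were already below all others, so it is not a separate result.

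**Figure D2:**
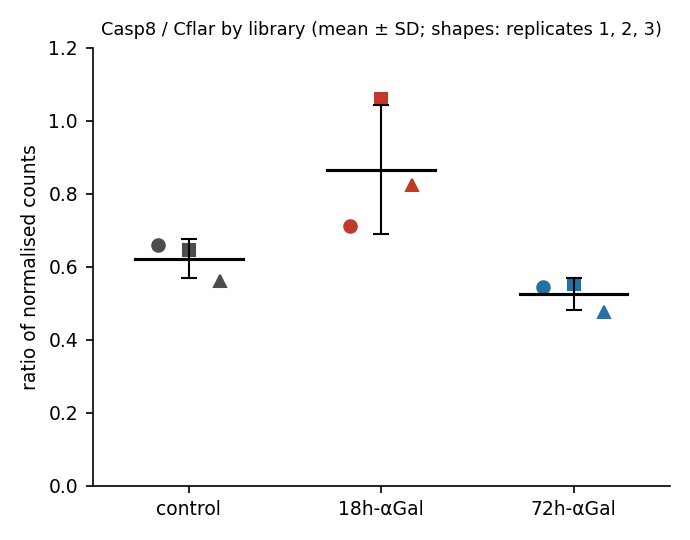
Ratio of Casp8 to Cflar normalised counts in each library (linear axis from 0; shapes are replicates 1 to 3, lines and bars the mean ± SD of 3 mice). The 18h-αGal libraries run from 0.713 to 1.06, above the highest control at 0.660, and the 72h-αGal libraries lie below the lowest control at 0.560.

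Casp6, an executioner caspase that cleaves nuclear lamins (chromosome 3, 129695069 to 129707752, plus strand), passed the test in no contrast and varied among mice of the same group. Normalised counts were 3359, 2859.9 and 4515 in controls, 3436, 3523 and 6099 in 18h-αGal and 2651, 2979 and 2113 in 72h-αGal. Replicate 3 was the highest of the control and of the 18h-αGal mice, and these were also the libraries with the highest Vil1 of their groups (26216 and 27837 normalised counts). Alpi, one of the enterocyte markers, was also highest in them (23931 and 34174). Lgr5, one of the stem cell markers, was the lowest of their groups in them (932 and 411). Control replicate 1 was close to control replicate 3 in Alpi, at 22883, but not in Casp6. The part of the epithelial mix was not tested. The log2 fold change was 0.29 ± 0.24 at 18 h (adjusted p = 0.551), and -0.02 without 18h-αGal replicate 3. From 18 h to 72 h the log2 difference was -0.74 ± 0.24 (adjusted p = 0.0778), with every 72h-αGal mouse below every 18h-αGal mouse, and DESeq2 called it (adjusted p = 0.00987).

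**Figure D3:**
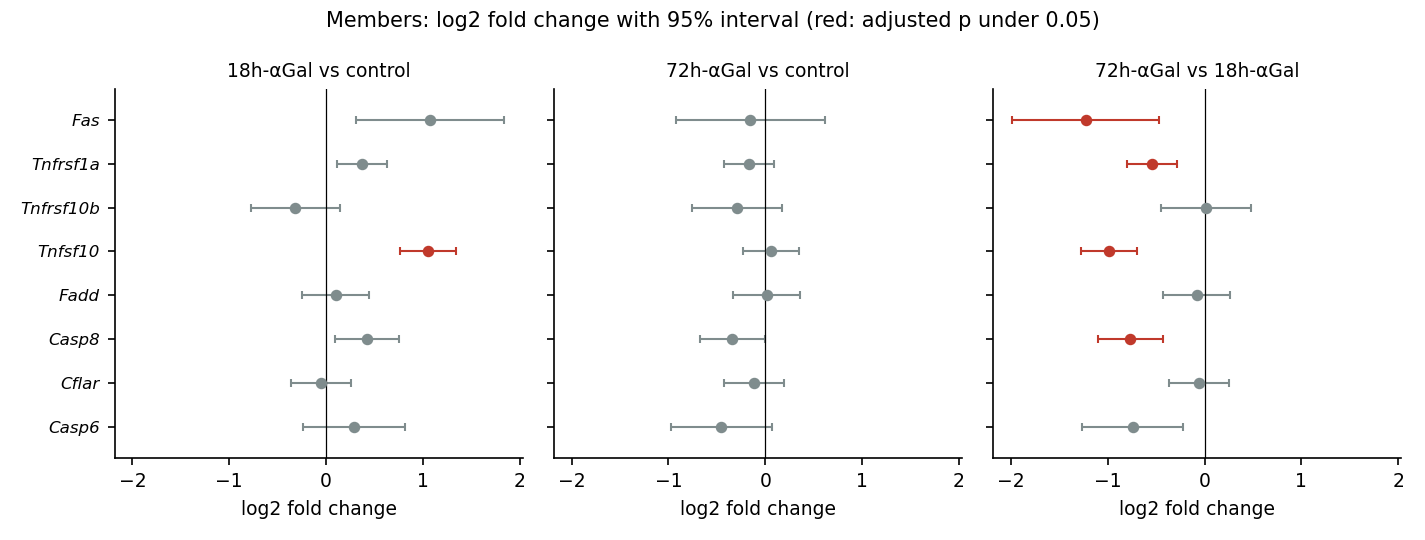
Log2 fold changes of the 8 genes with 95% intervals (edgeR) in the 3 contrasts, on a common linear axis (red points have an adjusted p under 0.05). Tnfsf10 is red at 18 h, none is red at 72 h against control, and Fas, Tnfrsf1a, Tnfsf10 and Casp8 are red and to the left of 0 at 72 h against 18 h.

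Counted together, 1 of the 8 genes was called at 18 h against control, where 5.96% of all genes tested were called and 3.27% were called higher. At an unadjusted p under 0.05 there were 4 of 8 (Fas, Tnfrsf1a, Tnfsf10 and Casp8, all higher), against 20.8% of all genes. Groups did not overlap, in the upward direction, for 3 of 8, against 11.5% of all genes. The median log2 fold change of the 8 was 0.33, beside -0.03 over all genes.

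At 72 h against control edgeR called 0 of 8 (0.0264% of all genes), with 1 at an unadjusted p under 0.05 (Casp8, lower), against 5.94% of all genes. Casp8 was also the 1 gene of the 8 whose groups did not overlap, against 6.3% of all genes in the downward direction. DESeq2 and limma also called 0 of 8. The median was -0.16, beside 0.00 over all genes. At 72 h against 18 h 4 of 8 were called, all lower (10.2% of all genes in either direction and 6.04% lower), and the median was -0.64, beside 0.05. There were 5 of 8 at an unadjusted p under 0.05 (24.3% of all genes) and 5 of 8 with groups that did not overlap, all lower (16.3% of all genes), Casp6 being the fifth in both. The 18h-αGal mice entered both the first and the last contrast, so the rise and the fall are not independent.

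**Figure D4:**
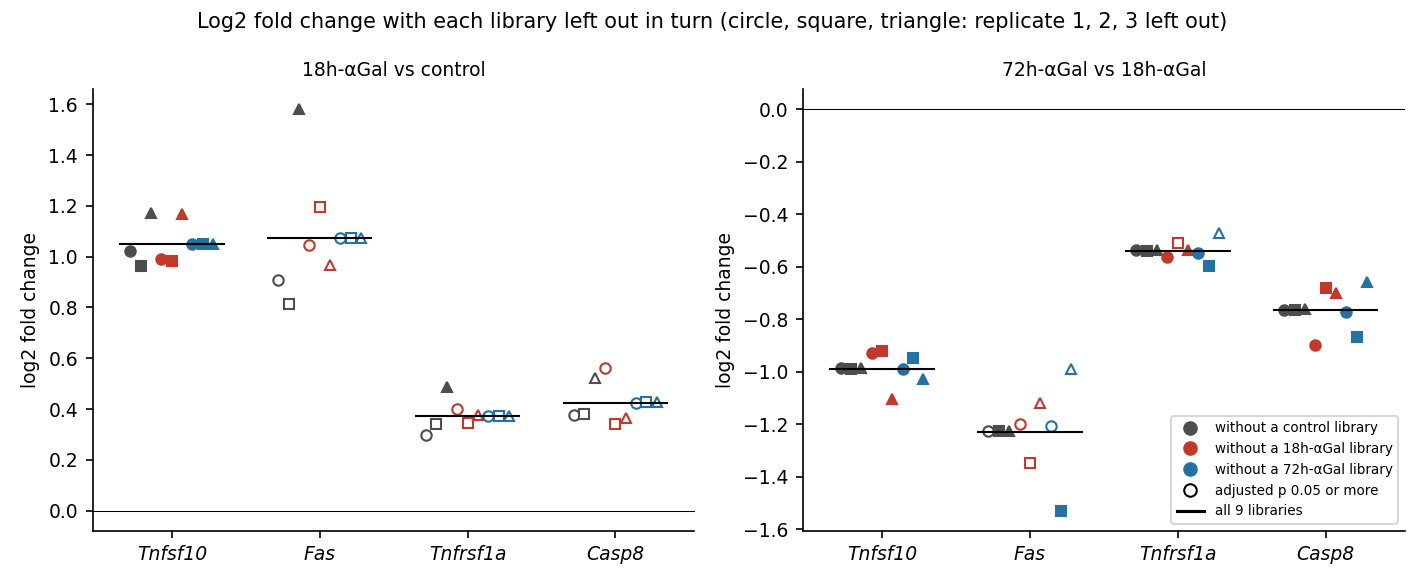
Log2 fold changes of Tnfsf10, Fas, Tnfrsf1a and Casp8 when each of the 9 libraries was left out in turn, at 18 h against control and at 72 h against 18 h (colour is the group and shape the replicate left out; black lines are all 9 libraries; filled marks have an adjusted p under 0.05). Tnfsf10 stays filled throughout in both panels, and Fas at 18 h is filled for the point at 1.58, the fit without control replicate 3.

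Levels of the genes were compared only per kilobase of exon, since longer mRNAs give more counts. On the mean normalised counts per kilobase of merged exons, the order in controls was Tnfrsf1a (811 ± 116), Casp6 (640.2 ± 152), Tnfsf10 (491 ± 78.1), Casp8 (421 ± 51.3), Fadd (153 ± 15.7), Cflar (146 ± 31.8), Fas (74.9 ± 42.0) and Tnfrsf10b (66.5 ± 12.4; SD, n = 3). Neighbours in this order differed by less than the sum of their SDs, except Casp8 and Fadd. At 18 h Tnfsf10 had 1008 ± 144 per kilobase, level with Tnfrsf1a at 1042 ± 42.9, and Fas had 153 ± 25.1 against 53.6 ± 9.07 for Tnfrsf10b. With the length of the canonical transcript instead, Casp6 was first in controls (2449 ± 581, against 1174 ± 167 for Tnfrsf1a), and Cflar (301 ± 65.6) was above Fadd, so the order rests on the transcript assumed.

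The other genes of the pathway were taken from a list of 42 ligands, receptors, signalling proteins, caspases, inhibitors and substrates. Of these, 40 were in the table, all but Fasl, the ligand of Fas, and Tnfrsf26. The tested genes were 38, since Lta and Traf1 had too few counts. At 18 h against control 3 of 38 were called, all higher (5.96% of all genes), at 72 h 0 of 38 with edgeR (0.0264% of all genes; 4 of 38 at an unadjusted p under 0.05, against 5.94% of all genes; 0 with DESeq2 and 0 with limma), and at 72 h against 18 h 3 of 38, all lower (10.2% of all genes). Without control replicate 3 the last count was 5, with Apaf1 lower and Birc3, an inhibitor of apoptosis, higher. The medians of the list were 0.07, 0.04 and -0.07 on the log2 scale, unchanged when Tnfrsf11b, which was at 0 in all controls, was set at its bound.

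On the mitochondrial side, Cycs, the gene of cytochrome c, which joins APAF1 to activate caspase-9 and is also a carrier of the respiratory chain, had 1848, 1455 and 2075 normalised counts in controls, 3168, 3356 and 3914 in 18h-αGal and 1468, 1573 and 1075 in 72h-αGal. It rose at 18 h (log2 fold change 0.97 ± 0.16; adjusted p = 0.00254) and fell by 72 h (-1.34 ± 0.16; adjusted p = 0.000182). With edgeR, Bid, Apaf1, Diablo, Casp2 and Casp9 were not called in any contrast. Apaf1 had a log2 difference of -0.50 ± 0.16 at 72 h against 18 h (adjusted p = 0.0633), which DESeq2 called.

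In the TNF receptor signalling complex 2 of 15 tested genes rose at 18 h (3.27% of all genes were called higher), and both encode subunits of the linear ubiquitin ligase that restrains caspase-8 downstream of TNFR1. Rnf31 (HOIP, the catalytic subunit) had 1394, 1859 and 2394 normalised counts in controls, 2925, 3294 and 3339 in 18h-αGal and 1777, 1979 and 1638 in 72h-αGal. It rose by 0.77 ± 0.16 on the log2 scale (adjusted p = 0.0107) and fell by 0.82 ± 0.16 by 72 h (adjusted p = 0.00518). The rise was not called without control replicate 1 (adjusted p = 0.0516) or 18h-αGal replicate 2 (adjusted p = 0.0504). Exons of Rnf31 overlap Psme2 on the opposite strand over 11.1% of their length and Irf9 on the same strand over 4.26%. Psme2, a proteasome activator subunit, itself rose at 18 h (0.84 ± 0.16; adjusted p = 0.00660), and whether counting used the strand is not given in the sources used here, so part of the Rnf31 counts is uncertain.

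Sharpin, a further subunit, had 1527, 1242 and 1576 normalised counts in controls, 2246, 2146 and 2234 in 18h-αGal and 1487, 1702 and 1429.8 in 72h-αGal. All 18h-αGal mice were above all others. It rose by 0.62 ± 0.12 on the log2 scale (adjusted p = 0.00900) and fell by 0.51 ± 0.12 by 72 h (adjusted p = 0.0162), a fall that was not called without 18h-αGal replicate 1, 72h-αGal replicate 1 or 72h-αGal replicate 3 (adjusted p up to 0.0859). Its exons overlap Maf1 on the opposite strand over 22.5% of their length, and Maf1 had a log2 fold change of 0.02 (adjusted p = 0.962) at 18 h. Rbck1, which encodes HOIL-1, the remaining subunit, was not called in any contrast.

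Of the 3 tested ligands other than Tnfsf10, none was called in any contrast. Tnf, the ligand of TNFR1, had 192, 184 and 171 normalised counts in controls, 192, 171 and 44.2 in 18h-αGal and 158, 221 and 229 in 72h-αGal, and its log2 fold change at 18 h was -0.40 ± 0.40 (adjusted p = 0.638), and 0.00 without 18h-αGal replicate 3. None of the 7 other receptors and decoys, the 4 inhibitors (Xiap among them) or the 3 nuclear substrates was called in any contrast.

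**Figure D5:**
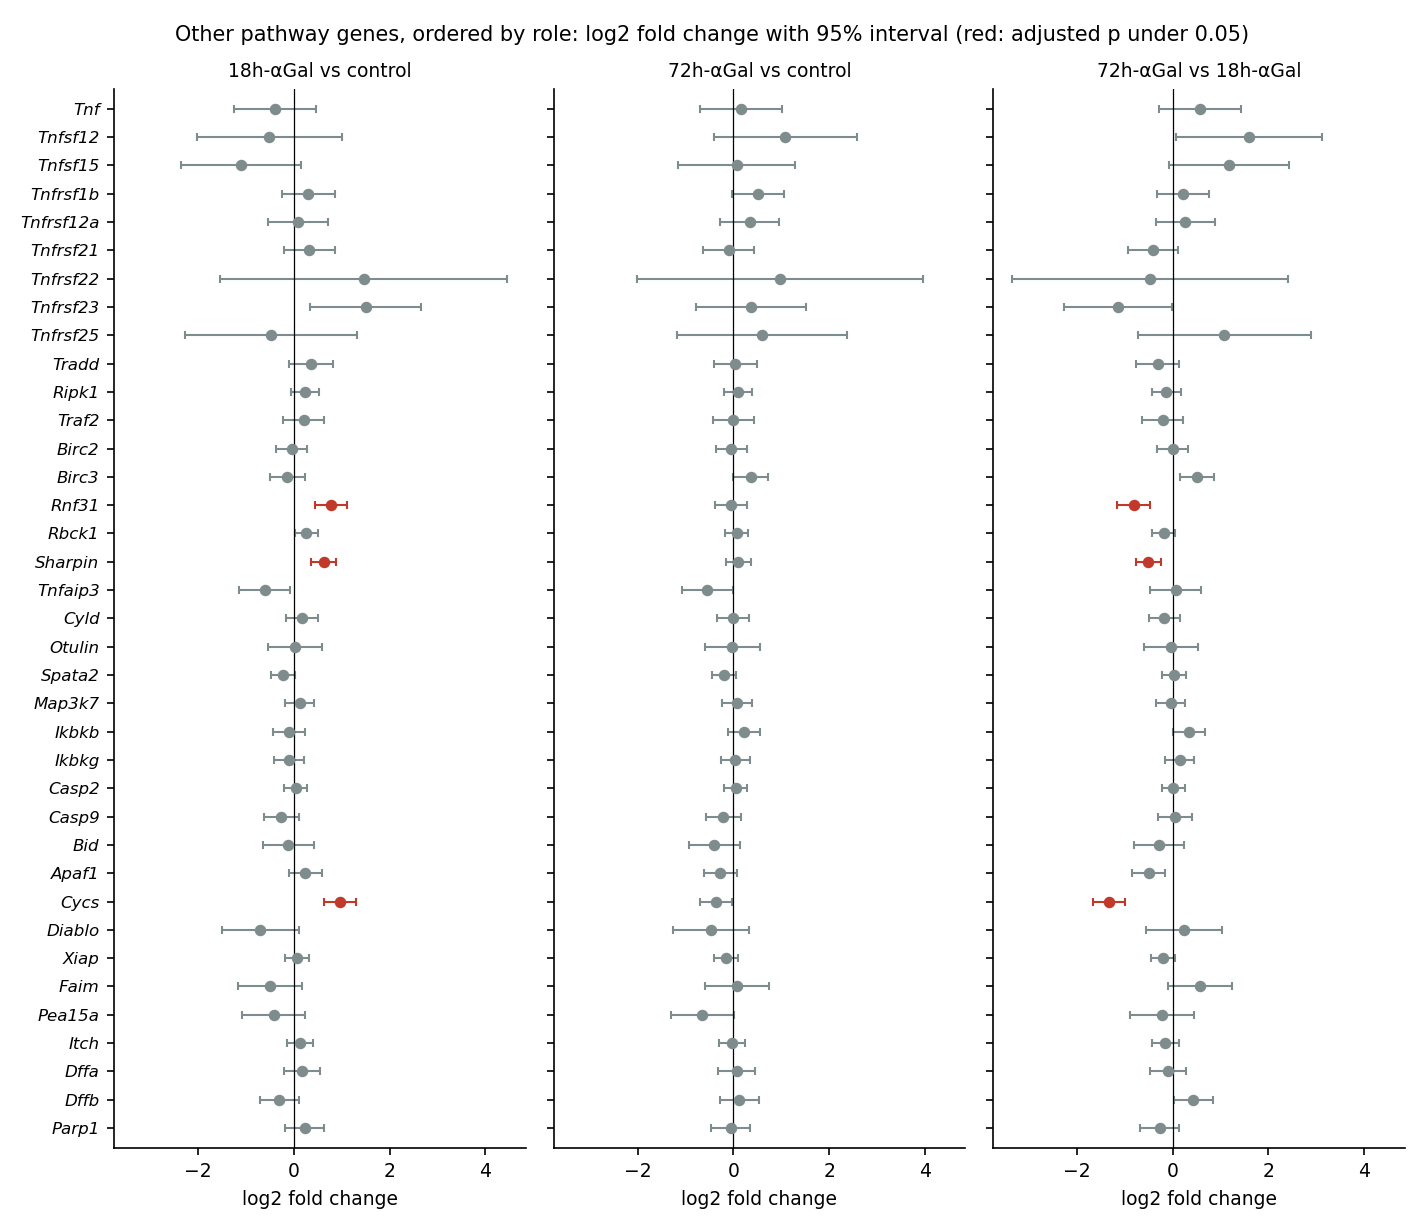
Log2 fold changes with 95% intervals (edgeR) of the further pathway genes tested, ordered by role, in the 3 contrasts (red points have an adjusted p under 0.05; Tnfrsf11b, at 0 in all controls, is not drawn). The red points are Rnf31, Sharpin and Cycs at 18 h against control, none at 72 h against control, and the same 3 genes, to the left of 0, at 72 h against 18 h.

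Some counts may be shared with other genes. Between 13.7% and 16.7% of short exon words of Tnfrsf10b, Fadd and Cflar also occurred in exons of another annotated gene, against 7.56% for Casp8, 6.91% for Casp6, 2.08% for Tnfsf10, 0.0824% for Fas and 0% for Tnfrsf1a. Exons of Fadd overlap the antisense RNAs Gm72893 (8.66% of its length) and Faddos (6.11%), and those of Casp6 overlap Mcub on the opposite strand (5.87%), a gene with a control mean of 21.4 normalised counts.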

How the data were processed

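RNA was sequenced from sorted IECs of 9 mice. Per the submitters' processing notes and the study's methods, reads of ribosomal RNA-depleted, directional libraries were aligned with HISAT2, counted with featureCounts of Subread and scaled with DESeq2 1.42.0. The study's methods name the build GRCm39 and the notes GRCm38. The annotation release and the strand setting are not given in the sources used here. The authors deposited raw counts per gene, and a normalised signal per gene, called normalised counts here. The deposited normalised signal equalled the raw count divided by 1 size factor per library (within a relative tolerance of 1e-09), so it is not corrected for gene length.

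Counts were tested with edgeR 4.0.16 in R 4.3.3: filterByExpr, TMM scaling and a robust quasi-likelihood model with 3 group means, fitted over 9 libraries, two-sided, with Benjamini-Hochberg adjustment over 18933 genes and an adjusted p under 0.05 as the threshold for a call. Standard errors were derived from the F statistic, and group values are mean ± SD, n = 3. The scripts were checked on simulated counts. Of 29288 identifiers, 28480 matched GENCODE vM39 (GRCm39), from which symbols and positions (1-based) were taken, and they held 98.4% of counts. Because of the difference in build, positions are those of the annotation and not of the authors' alignment.

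Alternatives were DESeq2 size factors in edgeR, DESeq2 1.42.0, no filter, a filter of at least 50 counts in at least 3 libraries, only the 2 groups compared, a replicate block, limma 3.58.1 on log2 of the normalised counts with a pseudocount of 1, and leaving out each library. Each library is 1 mouse. Replicates differed by more than counting error (chi-square per degree of freedom 14.2 to 47.5). Floors account for counting error alone, because PCR copies were not told apart by molecular identifiers. The genes and lists were chosen with earlier results of these data known, and no list was tested as a set. Some genes of the pathway list and a promoter motif are not reported here. All 8 genes are named, as are listed pathway genes that were called, Tnf and Fasl, and the 3 genes most like Tnfsf10. Other names (Apaf1, Birc3, Bid, Diablo, Rbck1, Xiap, Casp2, Casp9, Tnfrsf23, Tnfrsf11b, Psme2, Irf9, Maf1, Mcub) were chosen after their values were seen.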

Additional observations from a re-analysis of the deposited data

Results flagged for a closer look

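The effects of αGalCer at 72 h and at 18 h differed for 7 of the genes described. These were 4 of the 8 genes and 3 of the 38 other pathway genes tested (7.89%). Over all genes 10.2% were called in this contrast and 6.04% were called lower. The test was the contrast of 72h-αGal against 18h-αGal (edgeR quasi-likelihood test, adjusted over 18933 genes). Both effects were taken against the same 3 controls, which cancel in this difference. On the log2 scale the effect at 72 h minus that at 18 h was -1.23 for Fas (adjusted p = 0.0415), -0.54 for Tnfrsf1a (adjusted p = 0.0109), -0.99 for Tnfsf10 (adjusted p = 0.000593) and -0.77 for Casp8 (adjusted p = 0.00684). Among the other pathway genes it was -0.82 for Rnf31 (adjusted p = 0.00518), -0.51 for Sharpin (adjusted p = 0.0162) and -1.34 for Cycs (adjusted p = 0.000182). In each of the 7 genes all 3 72h-αGal mice were below all 3 18h-αGal mice. The 7 were picked by their calls in this same contrast, so this separation is no further result. The 16.3% of all genes without overlap in that direction is a share of called and uncalled genes alike. Sampling at 72 h had no control of its own, so the time of sampling and the effect of αGalCer cannot be told apart.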

How the results depend on the processing

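Tnfsf10 and Cycs kept their calls at 18 h against control and at 72 h against 18 h in all 16 alternatives of each, as did Casp8 at 72 h against 18 h. For the 8 death receptor and caspase genes, direction and side of the threshold held in 122 of 128 alternative values at 18 h, 119 of 128 at 72 h and 113 of 128 for 72 h against 18 h. Of the 8, 2 were called at 18 h without a filter (Fas, adjusted p = 0.0259, and Tnfsf10), where 1527 of 29288 genes were called. There were 1 to 3 when a library was left out. The fit with 3 was that without control replicate 3, where 1556 of 20326 genes were called. At 72 h against 18 h, 2 to 4 were called when a library was left out (2 without 18h-αGal replicate 2 or 72h-αGal replicate 3). Of the 38 other pathway genes, 3 were called at 72 h against 18 h with edgeR and 2 to 5 without 1 library. There were 5 without a filter and 5 in the fit of only the 2 groups, each time with Birc3 higher. The number called over all genes also changed between fits, as given next, and the counts of both lists are to be read beside it.

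Over all genes, DESeq2 called 1720 at 18 h against 1128 with edgeR, the fit of only the 2 groups 593, and fits without 1 library 432 to 1556. At 72 h against control, 5 genes were called with edgeR, 31 with DESeq2, 13 without a filter, 3 with the stricter filter, 3 with limma, 1 with the replicate block and 0 to 20 without 1 library. At 72 h against 18 h, fits without 1 library called 831 to 2593 genes.

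Leaving out 1 library reversed the sign of values that were not called. At 18 h the log2 fold change ranged from -0.15 to 0.13 for Cflar, -0.023 to 0.48 for Casp6 and -0.74 to 0.0021 for Tnf. At 72 h against control it ranged from -0.46 to 0.35 for Fas, -0.026 to 0.19 for Tnfsf10, -0.039 to 0.10 for Fadd, -0.21 to 0.070 for Cflar and -0.22 to 0.16 for Rnf31, and it was -0.0048 for Fadd with limma. At 72 h against 18 h it ranged from -0.074 to 0.16 for Tnfrsf10b, -0.17 to 0.0041 for Fadd and -0.13 to 0.041 for Cflar. The cause was not tested.

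Each group numbers its libraries 1 to 3, and the numbers mark different mice. Deviations of same-numbered libraries from their group means correlated at 0.02, 0.06 and 0.11 between control and 18h-αGal and at -0.03, -0.10 and -0.15 between control and 72h-αGal, and not every library correlated best with its own number, so the numbers were not taken as pairs. With the replicate block, 1, 0 and 3 of the 8 genes were called in the 3 contrasts, Fas at 72 h against 18 h being the call lost (-1.19, adjusted p = 0.0885). Over all 18933 genes the same fit called 781 at 18 h and 1 at 72 h against control. With 3 mice a group and raw counts of 110 to 577 for Fas and 130 to 766 for Tnfrsf10b, these 2 genes had the fewest counts of the 8 and among the widest intervals.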
